A study of Mus musculus with 30 samples.

Results

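The change of the microglial transcriptome between the juvenile and the adult brain was measured in the offspring of mothers whose immune system had been activated in pregnancy. It is the comparison of 3 libraries from postnatal day 60 (P60 MIA_CTRL) with 3 libraries from postnatal day 20 (P20 MIA), 6 of the 30 libraries of the series, and all 14225 transcripts of the deposited table were tested. The dams of MIA offspring were injected with poly(I:C), a mimic of viral RNA, and those of Saline offspring with saline. All mice were C57BL/6J. CTRL stands for the control chow that the P60 animals were fed, in contrast to the chow with a CSF1R inhibitor given to the depletion and repopulation groups, which are not compared here. Each library came from the CD11B+ cells, isolated with magnetic beads, of 1 whole brain, so the values are averages over all brain regions. The study used offspring of both sexes, and the labels name no litter and no sex. The same ages in Saline offspring, P60 Saline_CTRL against P20 Saline, share no library with this comparison and serve as its counterpart.

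Microglia are the resident macrophages of the brain. They enter it early in the embryo, divide and remodel synapses during the first postnatal weeks, and then settle into the surveying, slowly renewing state of the adult, which depends on signals such as TGF-beta and CSF1. CD11B, the integrin used for isolation, is also carried by the macrophages of the brain borders, by monocytes and by neutrophils, and debris of other brain cells can adhere to the cells or lie inside them. In RNA of such a preparation, fewer cells of a type and less RNA per cell cannot be told apart.

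The values are TPM, a measure of transcript abundance scaled to transcript length and to the library. The 6 libraries held an estimated 8420000 to 11410000 counted reads, and 1 read on a transcript of 1 kb was worth 0.234 to 0.33 TPM. Correlations of log2(TPM + 1) between libraries of a group ran from 0.988 to 0.993 at P20 and from 0.977 to 0.993 at P60. Of the TPM of the marker genes of 5 brain cell types, those of microglia made up 95.5%, 97.1% and 96.7% in the P20 libraries and 95.2%, 97.9% and 98.7% in the P60 libraries (two-sided exact permutation p = 0.6, with 0.1 the smallest that 3 against 3 allows). The P60 MIA_CTRL library 1 stood apart from its group. It had the highest summed TPM of astrocyte, neuron and endothelial markers of the 6 libraries and the lowest of 23 homeostatic microglial genes, 34600 TPM against 48330 to 56380 TPM. Sex also followed age in part. *Xist*, the long non-coding RNA made from the silenced X chromosome in females, stood at 189, 191 and 190.2 TPM at P20, and at 139.9, 0.14 and 0.20 TPM at P60. The 4 Y-linked genes *Ddx3y*, *Kdm5d*, *Eif2s3y* and *Uty* summed to 0.29 to 0.59 TPM at P20 and to 0.66, 280.1 and 290.7 TPM at P60. The libraries thus held 3 females at P20, and 1 female and 2 males at P60. *Xist* itself was lower at P60 by limma (log2 fold change -5.05, adjusted p = 0.041).

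Of the 14225 transcripts, 370 (2.6%) differed between P60 and P20, 146 higher at P60 (1.03%) and 224 lower (1.57%), at an adjusted p under 0.05 in limma's moderated test on log2(TPM + 1). A log2 fold change here is the difference of the group means of log2(TPM + 1), P60 minus P20, so it understates the change of transcripts near 0. The median over all transcripts was 0.0083, and 133 of the 370 differed by more than 1. At an unadjusted p under 0.05 were 2509 of the 14225, 1230 higher and 1279 lower, the background for unadjusted counts in the lists below. Among called transcripts 39.5% were higher at P60, and after median-ratio scaling 51.6% were. The libraries of both ages did not overlap for 4439 transcripts (31.2% of all), and for 368 of the 370 called ones. The number of calls rested on single libraries: without any 1 of the 6 it lay between 100 and 225, and it was 178 without the P60 library 1. With log2 *Xist* as a covariate 111 transcripts were called, 94 of them among the 370, and the female libraries alone gave 283, of which 137 were among the 370. At P60 the latter leaves library 1 alone, which is then assumed to vary like the other groups. How much of the result belongs to sex was not tested further.

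A core of 33 of the 370 calls was kept under each of the 17 other settings tried, including the *Xist* and marker covariates and each omission of a library. Of these, 23 were lower and 10 higher at P60. They were singled out after their values were seen, and give a description of the most stable members.

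The 12 largest falls, taken among called transcripts whose libraries did not overlap and that reached a mean of 5 TPM at either age, were *Igfbp3*, *Retnla*, *Gdf15*, *Rnase2a*, *Eln*, *9630013A20Rik*, *Aplnr*, *Igf2bp3*, *Enpp6*, *Dusp2*, *Dusp4* and *Col3a1*. *Igfbp3*, a carrier of insulin-like growth factors (chromosome 11, 7206086 to 7215498 in GRCm38.p6), had 189, 189.8 and 506 TPM at P20 and 29.3, 19.6 and 29.0 TPM at P60. It fell 11.4-fold in mean TPM (log2 fold change -3.31 ± 0.52 SE, adjusted p = 0.00112). Every P60 library was below every P20 library, and the P20 library 3 was far above the other two.

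*Gdf15*, a stress-induced hormone of the TGF-beta superfamily (chromosome 8, 70629393 to 70632470), had 861, 712 and 692 TPM at P20 and 113.7, 83.5 and 68.6 TPM at P60. The fall was 8.52-fold (log2 fold change -3.1 ± 0.31 SE, adjusted p = 3.7e-06), larger than any spread within an age. *Retnla*, a secreted resistin-like protein typical of alternatively activated macrophages, went from 62.2, 65.3 and 38.7 TPM to 4.95, 6.5 and 4.3 TPM (log2 fold change -3.15, adjusted p = 0.000453). *Igf2bp3*, a fetal RNA-binding protein that binds *Igf2* mRNA (chromosome 6, 49085218 to 49215469), had the smallest adjusted p of the comparison, 4.84e-09. Its levels were low but tight, at 13.6, 11.8 and 14.6 TPM against 2.34, 1.79 and 2.1 TPM, a fall of 6.43-fold. All of these stayed called without any 1 library, with adjusted p at most 0.0159 for *Igfbp3* and 2.08e-07 for *Igf2bp3*.

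*Dusp2* and *Dusp4*, phosphatases that switch off MAP kinases, fell together. *Dusp2* had 624, 529 and 730.2 TPM at P20 and 173.5, 162.8 and 126.4 TPM at P60, a 4.07-fold fall (adjusted p = 1.92e-05). *Dusp4* was lower in level, 21.1 to 36.9 TPM against 5.1 to 7.45 TPM, and fell 4.48-fold (adjusted p = 0.00251). Extracellular matrix genes were also among these 12. *Eln*, which encodes elastin, went from 247, 294 and 509.7 TPM to 66.6, 40.8 and 48.3 TPM (log2 fold change -2.69, adjusted p = 0.000596), and *Col3a1*, a fibrillar collagen, from 30.7 to 42.2 TPM to 7.94 to 10.7 TPM (adjusted p = 0.00233). The fibroblast genes *Col1a1*, *Col1a2*, *Dcn* and *Lum*, looked up after these values were seen, summed to 95.8 to 118.8 TPM at P20 and 51.7 to 72.5 TPM at P60 (exact permutation p = 0.1). Their part in the fall of *Eln* and *Col3a1* was not tested.

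*Rnase2a*, an eosinophil-associated ribonuclease, went from 8.77 to 10.8 TPM to 0, 2.01 and 0.34 TPM (adjusted p = 0.00179), and *Aplnr*, the apelin receptor, from 13.1 to 19.1 TPM to 1.7 to 3.97 TPM (adjusted p = 0.00473). *Enpp6*, a choline phosphodiesterase marking newly formed oligodendrocytes, had 35.7, 25.9 and 23.6 TPM at P20 and 10.4, 5.71 and 2.9 TPM at P60 (log2 fold change -2.12, adjusted p = 0.0349). The non-coding RNA *9630013A20Rik* had 32.6 to 50.5 TPM against 3.18 to 10.7 TPM (adjusted p = 0.0143). Both were highest, at each age, in library 1. The call of *Enpp6* was lost in 5 of the 6 omissions of a library (adjusted p up to 0.132 without P60 library 3) and that of *9630013A20Rik* in 3 (up to 0.0704). Of the 12 falls, 10 to 12 stayed called whichever library was left out. With log2 *Xist* as a covariate, and likewise in the female libraries alone, 7 of the 12 stayed called, and *9630013A20Rik*, *Aplnr*, *Col3a1*, *Dusp4* and *Enpp6* were lost.

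**Figure D1:**
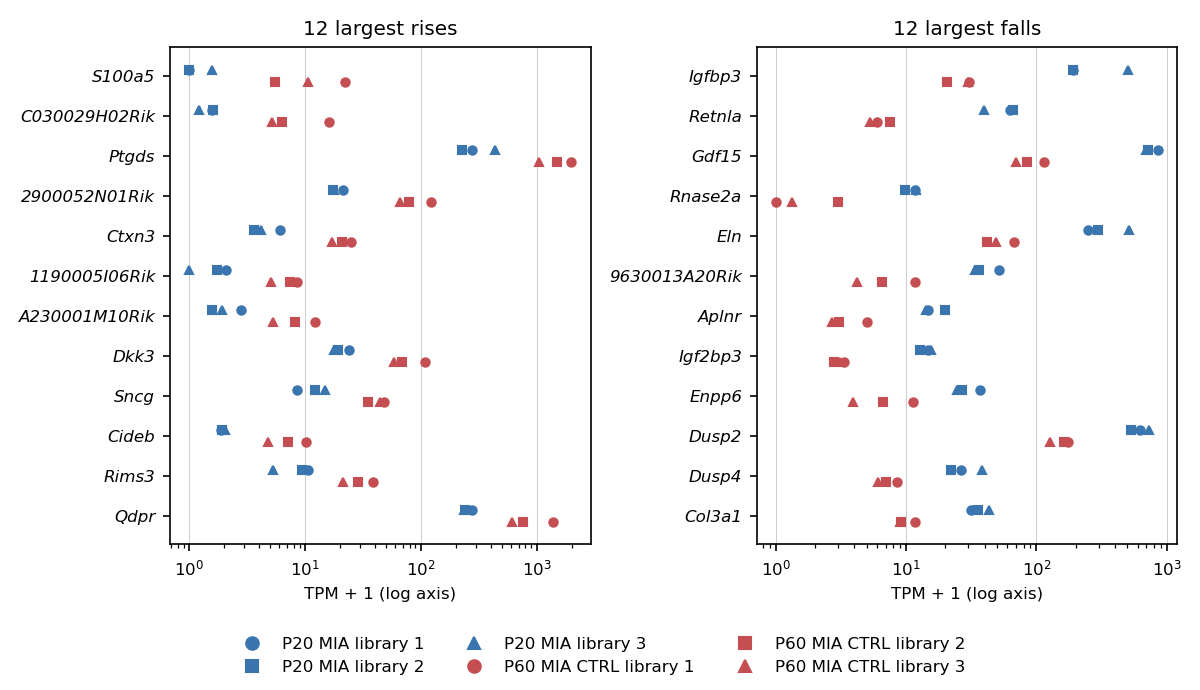
TPM + 1, on a log axis, of the 12 largest rises (left) and the 12 largest falls (right) between P20 and P60 in MIA offspring, ordered by log2 fold change; each marker is 1 library, with the marker shape giving its number. The 24 transcripts were chosen among those whose P20 and P60 libraries do not overlap. The P60 library 1 (red circle) is the highest of its group for each of the 12 rises.

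Smaller falls were also kept under each of the 17 settings. *Ncf1*, the p47phox subunit of the NADPH oxidase, had 11.4, 9.92 and 12.5 TPM at P20 and 2.2, 2.04 and 3.12 TPM at P60 (log2 fold change -1.84, adjusted p = 1.53e-05). *Bach1*, a heme-sensing repressor, fell from 177.7 to 227 TPM to 107.5 to 115.1 TPM (log2 fold change -0.81, adjusted p = 0.00151). Its small Maf partner *Mafg* fell from 213 to 258 TPM to 143.8 to 158.1 TPM (log2 fold change -0.62, adjusted p = 0.00151). *Slc31a1*, the copper importer, fell by 0.97 on the log2 scale (adjusted p = 0.000458). *Irf2bp2*, a repressor that binds interferon regulatory factor 2, fell by 1.18 on the log2 scale (adjusted p = 0.000419). *Arsb*, a lysosomal sulfatase at 713 to 974 TPM at P20, stood at 358 to 473 TPM at P60 (adjusted p = 0.00473). *Btg1*, an antiproliferative factor, fell by 0.73 on the log2 scale (adjusted p = 0.00377).

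The 12 largest rises were *S100a5*, *C030029H02Rik*, *Ptgds*, *2900052N01Rik*, *Ctxn3*, *1190005I06Rik*, *A230001M10Rik*, *Dkk3*, *Sncg*, *Cideb*, *Rims3* and *Qdpr*. *S100a5*, a calcium-binding protein (chromosome 3, 90606480 to 90611784), was listed at 0, 0 and 0.58 TPM at P20 and at 21.3, 4.5 and 9.74 TPM at P60 (log2 fold change 3.23 ± 0.68 SE, adjusted p = 0.0111). It was nearly absent at P20, and the P60 values spread widely. The non-coding RNA *C030029H02Rik* went from 0.22 to 0.6 TPM to 15.1, 5.36 and 4.2 TPM (log2 fold change 2.48, adjusted p = 0.00112).

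*Ptgds*, the prostaglandin D2 synthase, which is abundant in the meninges, choroid plexus and oligodendrocytes, had 276, 226 and 437 TPM at P20 and 1996, 1493 and 1046 TPM at P60 (4.83-fold, adjusted p = 0.0294). *Qdpr*, the reductase that regenerates tetrahydrobiopterin (chromosome 5, 45434032 to 45450229), had 273, 241 and 234 TPM at P20 and 1379, 767 and 613 TPM at P60 (3.69-fold, log2 fold change 1.79 ± 0.34 SE, adjusted p = 0.00542). It stayed called in each omission of a library (adjusted p at most 0.039). *Ctxn3*, which encodes a small membrane protein, cortexin 3, rose from 2.62 to 5.16 TPM to 24.12, 20 and 16.04 TPM (5.47-fold, adjusted p = 0.00657) and also stayed called.

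*Dkk3*, a secreted protein of the Dickkopf family, went from 16.8 to 23.3 TPM to 108.6, 68.4 and 57.9 TPM (adjusted p = 0.0357). *Rims3*, a presynaptic active zone protein, went from 4.33 to 9.65 TPM to 38.0, 27.6 and 20.3 TPM (adjusted p = 0.03), and *Sncg*, gamma-synuclein, from 7.52 to 13.9 TPM to 47.6, 33.8 and 43.1 TPM (adjusted p = 0.0142). *Cideb*, a protein of lipid droplets, rose from 0.89 to 1.06 TPM to 3.79 to 9.25 TPM (adjusted p = 0.0336). For each of the 12 the P60 library 1 was the highest of its group. Without it, 8 of the 12 lost their call (*2900052N01Rik*, *A230001M10Rik*, *Cideb*, *Dkk3*, *Ptgds*, *Rims3*, *S100a5* and *Sncg*), with adjusted p up to 0.155, and over the 6 omissions 4 to 11 of the 12 stayed called. With log2 *Xist* as a covariate 5 of the 12 stayed called (*1190005I06Rik*, *2900052N01Rik*, *A230001M10Rik*, *Cideb*, *Dkk3*, *Ptgds* and *Rims3* were lost), and in the female libraries alone 7.

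Smaller rises kept under each of the 17 settings included several enzymes. *Phyh*, the peroxisomal hydroxylase of phytanic acid, had 107.7, 108.2 and 98.9 TPM at P20 and 252, 188 and 182 TPM at P60 (log2 fold change 0.96, adjusted p = 0.00515). *Cbr3*, a carbonyl reductase, rose from 13.7 to 18.9 TPM to 34.4 to 42.8 TPM (log2 fold change 1.21, adjusted p = 0.00515). *Bola3*, a mitochondrial iron-sulfur cluster factor, rose from 39.95 to 49.4 TPM to 73.9 to 89.9 TPM (log2 fold change 0.87, adjusted p = 0.0059). *Gstt3*, a glutathione transferase, rose 2.36-fold to 16.6 TPM ± 1.32 (SD, n = 3; adjusted p = 0.00473). *Rfk*, the kinase that makes flavin mononucleotide from riboflavin, rose by 0.58 on the log2 scale (adjusted p = 0.00721). *Rad54b*, a recombination factor, rose 2.97-fold to 16.4 TPM ± 4.63 (SD, n = 3; adjusted p = 0.00531).

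Other cell types were measured by their markers in the same libraries. All 20 astrocyte marker transcripts, of 17 genes, had a positive log2 fold change (median 0.97) and 0 of 20 were called, with 7 at an unadjusted p under 0.05 in limma. Their summed TPM was 4011, 3259 and 3254 at P20 and 11100, 6558 and 5548 at P60, 2.21-fold higher and without overlap (exact permutation p = 0.1). Without the P60 library 1 the ratio was 1.73. *S100b*, a calcium-binding astrocyte marker, had 203 to 310.3 TPM at P20 and 1136, 603 and 486 TPM at P60 (adjusted p = 0.0819). Neuron markers summed to 460, 295 and 239 TPM at P20 and to 826, 548 and 384 TPM at P60 (0 of 19 called, 5 at an unadjusted p under 0.05, permutation p = 0.2). The astrocyte and neuron sums were higher at P60, and their part in the 12 largest rises was not tested. With the astrocyte sum as a covariate, a setting chosen after the data were seen, 10 of these 12 stayed called. All calls then numbered 929 in place of 370, with 16.5% of them higher at P60. Each of the 12 had a smaller log2 fold change, *Dkk3* for example 0.92 in place of 1.92.

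Oligodendrocyte lineage markers moved the other way, from 6733, 5213 and 5211 TPM to 4674, 3907 and 3389 TPM (permutation p = 0.1). In this list 1 of 21 transcripts, *Enpp6*, was called lower (4.76%, against 1.57% of all). *Ugt8a*, an enzyme of myelin lipid synthesis, had 377, 268 and 261 TPM at P20 and 127.2, 70.5 and 40.3 TPM at P60, and did not pass (adjusted p = 0.0659). Choroid plexus markers had the widest gap: their sum was 4759, 3205 and 4591 TPM at P20 and 1483, 1919 and 1172 TPM at P60, 2.75-fold lower at P60, with 0 of 12 called and 3 at an unadjusted p under 0.05. *Ttr*, the transthyretin made by the choroid plexus, accounted for most of it, at 3044 to 4527 TPM against 1083 to 1786 TPM (adjusted p = 0.254). Border macrophage markers summed to 1322 to 1438 TPM at P20 and to 973 to 1049 TPM at P60. Among their 14 transcripts *Ccr1*, a chemokine receptor, was the 1 called (7.14%, against 1.57% of all that fell). It fell from 59.3, 58.6 and 39.1 TPM to 23.7, 19.03 and 25.3 TPM (adjusted p = 0.043). It lost the call in each of the 6 omissions, with adjusted p up to 0.163. *Lyve1*, which marks border macrophages, had 70.2 to 98.2 TPM against 32.6 to 43.7 TPM (adjusted p = 0.101). Endothelial and mural markers overlapped (3491 to 4409 TPM against 3284 to 6394 TPM). Monocyte and neutrophil markers summed to 1651 to 2334 TPM at P20 and to 1258 to 1626 TPM at P60, 1.35-fold lower and without overlap (permutation p = 0.1), next to 1.36-fold for border macrophages. In that list the sum was lower at P60 while the median log2 fold change was 0.56. In it 1 of 18, *Nr4a1*, was called (5.56%, against 1.57% of all that fell). NK, T and B cell markers stayed at 28.2 to 69.8 TPM and erythroid markers at 67.0 to 121.2 TPM in all 6 libraries. The part of these cell types in the age change of any single gene was not tested.

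**Figure D2:**
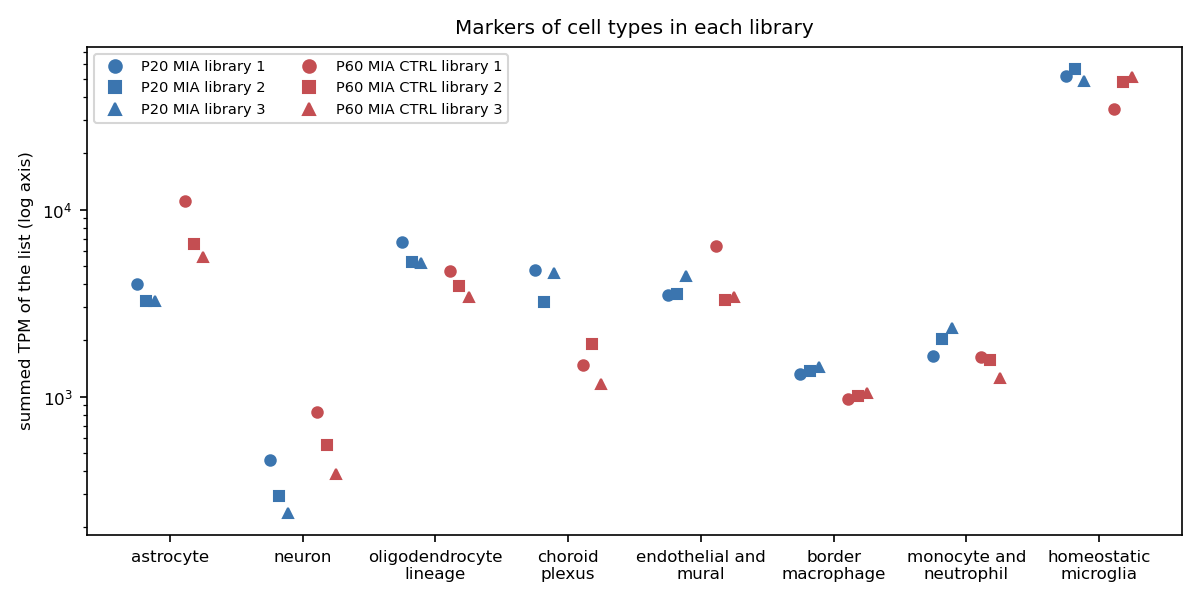
Summed TPM, on a log axis, of marker lists of 8 cell types in the 3 P20 MIA libraries (blue) and the 3 P60 MIA_CTRL libraries (red), with the marker shape giving the library number. The astrocyte sums lie higher and the choroid plexus, oligodendrocyte lineage, border macrophage, and monocyte and neutrophil sums lower at P60, and the P60 library 1 has the highest astrocyte, neuron and endothelial sums and the lowest homeostatic microglial sum.

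Genes by which microglia are recognised did not pass the test. Of 24 transcripts of homeostatic surface and sensing genes 0 were called, and 5 were at an unadjusted p under 0.05, next to 2509 of all 14225. The median log2 fold change was -0.24, or -0.09 without the P60 library 1. *P2ry12*, the purinergic receptor that steers microglial processes, had 4803, 5028 and 3908 TPM at P20 and 2847, 4017 and 3933 TPM at P60 (adjusted p = 0.454). *Tmem119*, a microglia-specific membrane protein, had 3112, 3331 and 3057 TPM against 1903, 2827 and 3097 TPM (adjusted p = 0.51). For both genes the groups overlapped and the P60 library 1 was the lowest. *Csf1r*, the receptor on which microglial survival depends (adjusted p = 0.462), and *Cx3cr1*, the fractalkine receptor (adjusted p = 0.782), gave log2 fold changes of -0.29 and -0.13. Among 23 transcripts of identity transcription factors, *Bhlhe41* alone was called, lower (4.35%, against 1.57% of all that fell). *Bhlhe41* had 3.04, 3.01 and 1.75 TPM at P20 and 1.29, 0.82 and 0.80 TPM at P60 (adjusted p = 0.0193, up to 0.0995 without a library, lost in 4 of 6 omissions). Without the P60 library 1 it was joined by 3 that rose, *Jun*, *Klf2* and *Klf4*, which also stand in the immediate early list, and in Saline offspring 3 rose. *Sall1*, a microglia-restricted transcription factor, gave a log2 fold change of -0.28 (adjusted p = 0.668) and *Mef2c* one of -0.31 (adjusted p = 0.368).

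Inflammatory mediators were the list with the most falls by count, while the share was larger in the TGF-beta pathway (4 of 22, 18.2%). Of 30 transcripts of cytokine, chemokine and NF-kB genes, 5 fell (16.7%, against 1.57% of all transcripts) and 0 rose, and the median log2 fold change was -0.43. The 5 were *Cxcl10*, *Ccl3*, *Ccl4*, *Ccl9* and *Tnf*. *Cxcl10*, an interferon-inducible attractant of T cells, had 137.9, 135.5 and 142.2 TPM at P20 and 49.0, 37.1 and 33.1 TPM at P60. It fell 3.48-fold (log2 fold change -1.79 ± 0.32 SE, adjusted p = 0.00377) and stayed called in each omission of a library (adjusted p at most 0.021). *Ccl3* and *Ccl4*, chemokines of the CC family, were among the more abundant transcripts. *Ccl3* had 2853, 2897 and 3171 TPM at P20 and 1889, 1096 and 885 TPM at P60 (2.31-fold lower, adjusted p = 0.0281). *Ccl4* had 3736, 3793 and 3892 TPM at P20 and 2327, 1840 and 1354 TPM at P60 (2.07-fold lower, adjusted p = 0.0282). The annotated spans of both overlap on chromosome 11, and whether any counted reads of these unstranded libraries were ambiguous between them was not tested.

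*Ccl9*, a chemokine for CCR1, fell 2.08-fold, from 175.6, 218 and 245 TPM to 86.9, 107.9 and 112.7 TPM (adjusted p = 0.0271). *Tnf*, the master inflammatory cytokine, had 26.9, 23.5 and 32.7 TPM at P20 and 14.5, 9.41 and 7.35 TPM at P60 (2.66-fold lower, adjusted p = 0.0432). Like 368 of the 370 called transcripts, all 5 genes showed no overlap of the ages. Apart from *Cxcl10* these calls were less stable: *Ccl3*, *Ccl4* and *Tnf* lost theirs in 5 of the 6 omissions and *Ccl9* in 4, with adjusted p up to 0.164, and the number of called members lay between 1 (without the P20 library 2 or 3 or the P60 library 2) and 4. With log2 *Xist* as a covariate or in the female libraries alone, 0 of the 30 were called, while the list median was -0.50 and -0.56. The summed TPM of the list was 13970, 14110 and 15320 at P20 and 9348, 9213 and 7962 at P60 (exact permutation p = 0.1), with 9348 TPM in the only female P60 library.

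Some falls outside the list were chosen after their values were seen, and are given as values only. *Nfkbid*, an atypical nuclear IkappaB protein, fell from 726, 727 and 867 TPM to 414, 364 and 255 TPM (log2 fold change -1.19, adjusted p = 0.00515). *Icam1*, an adhesion molecule, fell from 892, 872 and 1226 TPM to 494, 672 and 586 TPM (adjusted p = 0.026). *Gadd45b*, a stress-response gene, fell 2.25-fold (adjusted p = 0.0108), and *Klf10*, a zinc finger factor induced by TGF-beta, 2.38-fold (adjusted p = 0.00663). Without the P20 library 3 the adjusted p was 0.073 for *Gadd45b* and 0.0614 for *Klf10*. *Icam1* lost its call in 4 of 6 omissions (adjusted p up to 0.154). The near-identical copies *Bcl2a1b* and *Bcl2a1d*, apoptosis inhibitors whose reads the counting could have split, fell by 0.78 and 0.88 on the log2 scale (adjusted p = 0.0313 and 0.0453), and lost their calls in 6 and 5 of 6 omissions (adjusted p up to 0.16 and 0.22).

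The promoters of the cytokine list were searched for the kappaB motif, the 10-base element bound by NF-kB factors, on both strands of the 250 bases before and 50 after the start site. A match was found in 10 of 26 promoters of the cytokine list (38.5%) and in 4.51% of all 32851 RefSeq promoters. Of the 5 genes that fell, *Cxcl10* held 2 matches and *Ccl9* 1, *Ccl3* and *Tnf* held none in this window, and *Ccl4* had no entry. The 3 matches are shown as windows of 30 bases, 5′ to 3′ on the strand of the gene (the minus strand of GRCm38.p6, RefSeq), with the motif in capitals. The first lies at chr5:92349029-92349058, the second at chr5:92348973-92349002 and the third at chr11:83578652-83578681. A match is a description of the letters only.
Cxcl10, 159 bases upstream: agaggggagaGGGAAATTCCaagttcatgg
Cxcl10, 103 bases upstream: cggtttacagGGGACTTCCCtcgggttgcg
Ccl9, 35 bases upstream, motif on the opposite strand: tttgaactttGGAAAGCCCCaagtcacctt

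Interferon-stimulated genes had the lowest median of the lists of microglial functions, -0.49, with 26 of 29 transcripts negative, and 0 of 29 were called. The rank did not hold in each setting. Without the P20 library 1 the median was -0.34, against -0.41 for the cytokine list. With log2 *Xist* as a covariate it was -0.245, against -0.50. Unadjusted, 12 of the 29 were at p under 0.05, next to 2509 of all 14225. *Oas1a*, an oligoadenylate synthetase, had 23.04, 17.5 and 14.9 TPM at P20 and 8.18, 10.6 and 6.19 TPM at P60 (adjusted p = 0.0515), and *Ifi204*, a DNA sensor of the HIN-200 family, had 25.5 to 35.4 TPM against 13.8 to 18.1 TPM (adjusted p = 0.0644).

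Genes of MHC class II were among the rises. *H2-Aa* and *H2-Ab1*, the alpha and beta chains of the MHC class II molecule I-A, rose. *H2-Aa* had 206, 166.4 and 158 TPM at P20 and 331, 422 and 415 TPM at P60 (2.2-fold, adjusted p = 0.041), and *H2-Ab1* 210.2, 162.3 and 155.8 TPM against 307, 409 and 373 TPM (2.06-fold, adjusted p = 0.0446). They were 2 of 13 transcripts (15.4%, against 1.03% of all that rose), the list median was 0.10, and *H2-Eb1*, the beta chain of I-E, had 95.6 to 134.4 TPM against 199 to 279 TPM (adjusted p = 0.052). Both calls were lost in each of the 6 omissions (adjusted p up to 0.154 and 0.162) and after median-ratio scaling. With log2 *Xist* as a covariate they were also lost (adjusted p = 0.102 and 0.106), and the list median was 0.03. In the female libraries alone, which leave library 1 as the only one at P60, the list median was -0.13. Of 19 transcripts of MHC class I and peptide loading 0 were called, 3 at an unadjusted p under 0.05. *B2m*, the light chain of class I molecules, had 6262 to 6440 TPM at P20 and 4038 to 6008 TPM at P60 (adjusted p = 0.414).

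Immediate early genes, which respond within minutes to stimulation and to handling of cells, went both ways. *Fosb* rose from 378, 402 and 687 TPM to 685, 1986 and 2054 TPM (log2 fold change 1.58, adjusted p = 0.0152), with the P60 library 1 inside the P20 range. *Nr4a1*, an orphan nuclear receptor, fell from 1282, 1214 and 1918 TPM to 785, 744 and 568 TPM (2.11-fold, adjusted p = 0.00473). The other 27 of 29 transcripts were not called, so that 6.9% of the list was, against 2.6% of all. *Fos* had 2854, 3148 and 4359 TPM against 3742, 8043 and 7878 TPM (adjusted p = 0.0678). Without the P60 library 1 the number that rose was 7 in place of 1, among them *Fos* (adjusted p = 0.00826), *Jun* (0.0407), *Klf2* (0.0226) and *Klf4* (0.0307), and in Saline offspring 7 rose and 4 fell. With log2 *Xist* as a covariate 0 of 29 were called. *Fosb* lost its call in 4 of 6 omissions (adjusted p up to 0.098), and *Nr4a1* in none (at most 0.0447). Library 1 at P60 had the lowest *Fos* and *Fosb* of its group and was also the only female in it.

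Some subunits of the respiratory chain rose by small amounts. Of 71 transcripts of nuclear-encoded oxidative phosphorylation genes, 6 rose (8.45%, against 1.03% of all transcripts) and 0 fell. The median log2 fold change was 0.26, 66 of 71 were positive, and 30 were at an unadjusted p under 0.05. Called were the complex I subunits *Ndufa5*, *Ndufa12*, *Ndufa13*, *Ndufb3* and *Ndufb10* and the complex II subunit *Sdha*. *Ndufa5* had 52.0, 40.6 and 42.2 TPM at P20 and 103, 84.5 and 71.9 TPM at P60 (1.93-fold, adjusted p = 0.00994). *Ndufb3* had 79.9 to 87.7 TPM against 112.2 to 128.4 TPM (1.43-fold, adjusted p = 0.0199), and *Ndufb10* 234 to 257 TPM against 445, 332 and 309.9 TPM (adjusted p = 0.028). The ages did not overlap for these, as for 368 of the 370 called transcripts, and the P60 library 1 was the highest in each. Without that library the median of the list was 0.14 and 0 of 71 were called. Without the P20 library 2 or 3 also 0 were called, at a median of 0.24, and without the P20 library 1 or the P60 library 2 it was 1. The female libraries alone leave library 1 as the only one at P60, so that setting cannot show the rise without it. With the astrocyte sum as a covariate the median was again 0.14, with 2 called.

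Growth and differentiation signals held a few sharp falls. Of 17 growth factor and insulin-like transcripts, *Igf2bp3* and *Igfbp4* fell (11.8%, against 1.57% of all). *Igfbp4*, a binding protein of insulin-like growth factors, went from 232, 260.1 and 216 TPM to 120.8, 126.8 and 139.9 TPM (1.83-fold, adjusted p = 0.00186) and stayed called in every omission. In the TGF-beta pathway 4 of 22 transcripts fell (18.2%, against 1.57% of all) and 0 rose. The number called was 1 or 2 in each omission of a library, 1 with log2 *Xist* as a covariate and 0 in the female libraries alone. They come from only 2 genes, both repressors of SMAD signalling: *Skil* (4.45, 5.02 and 5.18 TPM against 2.28, 2.24 and 2.65 TPM, adjusted p = 0.00783) and *Tgif1*, whose 3 transcripts share sequence and are not independent. The most strongly changed *Tgif1* transcript had 20.1, 16.5 and 30.4 TPM against 12.04, 8.56 and 9.1 TPM (log2 fold change -1.07, adjusted p = 0.0193), and lost its call in 4 of 6 omissions (up to 0.132). The other two lost theirs in 6 and 5 of 6 (up to 0.17 and 0.158). *Csf1*, the ligand of CSF1R, was the 1 called of 26 transcripts of the disease-associated microglia list (3.85%, against 1.57% of all that fell). It had 7.44, 7.45 and 5.57 TPM at P20 and 2.26, 1.2 and 1.01 TPM at P60 (4.58-fold lower, adjusted p = 0.00515). The call was lost with log2 *Xist* as a covariate (adjusted p = 0.0971) and in the female libraries alone (adjusted p = 0.163). *Cst7*, a cystatin of that list, had 32.6 to 33.5 TPM against 16.9 to 17.8 TPM without passing the test (adjusted p = 0.123).

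Cell cycle genes were low at both ages. Of 23 mitosis transcripts 1 was called (4.35%, against 1.57% of all that fell), *Cdk1*, the kinase that drives entry into mitosis. It had 8.06, 8.56 and 10.3 TPM at P20 and 4.48, 4.18 and 4.33 TPM at P60 (2.07-fold lower, adjusted p = 0.0313). It lost the call in each of the 6 omissions (adjusted p up to 0.141). The median of the list was -0.43 and 21 of 23 were negative. The DNA replication list had 0 of 29 called, 1 at an unadjusted p under 0.05, and a median of -0.01. At E17 and P7, MIA microglia had had 139.1 and 143.3 TPM of *Cdk1* on average. Mitosis promoters are known for the CCAAT box and for the CHR element, searched for here as TTTGAA, both on either strand. The CCAAT box was found in 16 of 21 mitosis promoters (76.2%) and in 37.4% of all promoters. The CHR letters were found in 16 of 21 (76.2%) and in 17.9% of all. In DNA replication promoters the shares were 56% and 8%, and the E2F-type motifs TTTGGCGC, TTTCCCGC and TTTGGCGG were found in 16%, 20% and 8% of 25 promoters, against 0.514%, 1.07% and 0.56% of all. In the *Cdk1* promoter the CCAAT box was found 208, 80 and 48 bases upstream, and the CHR letters 71 and 15 bases upstream. Which of these matches is used was not tested. The window that holds both motifs, at chr10:69352971-69353000 on the minus strand, is shown. Its CCAAT box (on the opposite strand here) and CHR letters are in capitals.
Cdk1, 88 to 59 bases upstream: cagctctgATTGGctccTTTGAAcgtctac

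Metabolic and clearance lists showed few calls. *Insig1*, the sterol sensor that holds back cholesterol synthesis, was the 1 called of 32 transcripts of cholesterol and lipid handling (3.12%, against 1.57% of all that fell). *Insig1* fell from 172.5, 144.9 and 195.9 TPM to 121.8, 86.5 and 88.2 TPM (adjusted p = 0.0108). It lost its call without the P20 library 3 or the P60 library 2 (adjusted p up to 0.073), and with log2 *Xist* as a covariate (adjusted p = 0.139). Among 77 cytosolic ribosomal protein transcripts *Rpl12* (adjusted p = 0.0142) and *Rpl10a* (adjusted p = 0.0453) fell, by 0.80 and 0.46 on the log2 scale. They were 2.6% of the list, next to 1.57% of all transcripts that fell. They lost their calls in 3 and 6 of 6 omissions (adjusted p up to 0.0657 and 0.159). Of all 14225 transcripts 2509 were at an unadjusted p under 0.05. Lists with 0 calls were complement (16 transcripts, 2 at an unadjusted p under 0.05), apoptotic cell clearance (27, 4), lysosome (39, 7), glycolysis (23, 6) and potassium and calcium channels (23, 3). Among them *Grn*, the lysosomal protein progranulin, had 2566 to 2688 TPM against 1412, 1763 and 1955 TPM (adjusted p = 0.057).

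**Figure D3:**
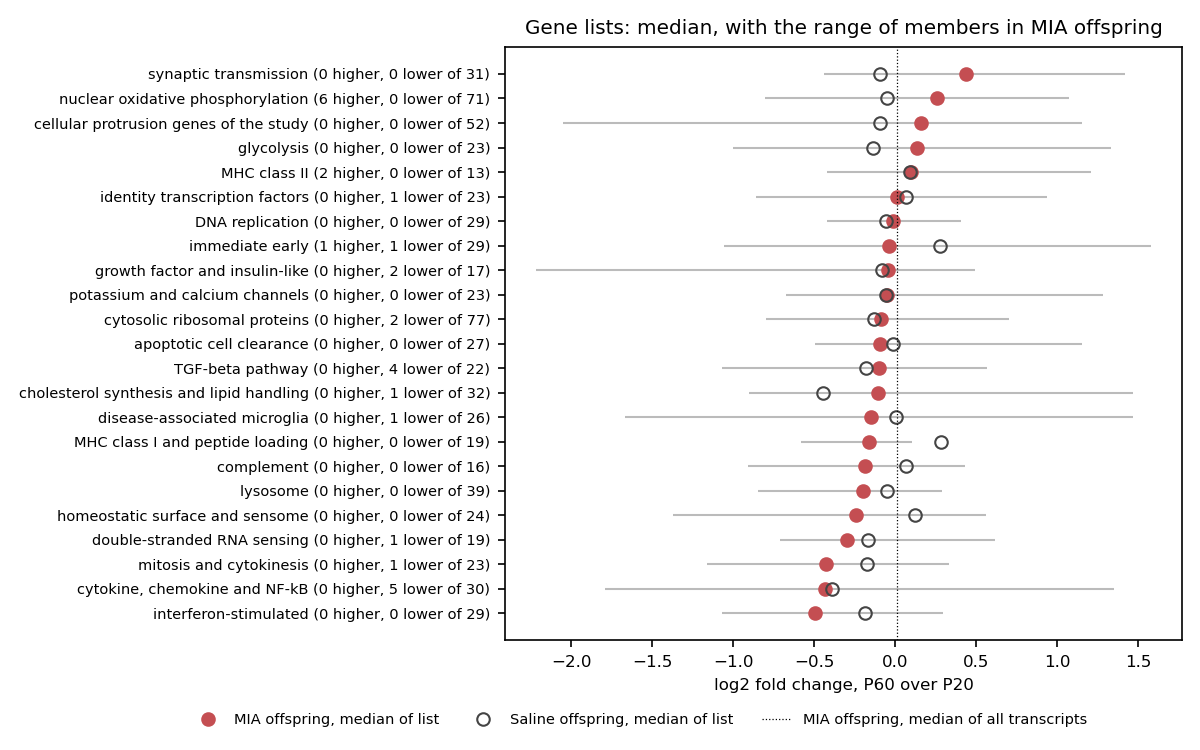
Log2 fold change, P60 over P20, of 23 gene lists: filled points are the list medians in MIA offspring, open points those in Saline offspring, grey lines run from the lowest to the highest member in MIA offspring, and the labels give the called transcripts. Interferon-stimulated, cytokine and mitosis genes have the lowest medians in MIA offspring (-0.49, -0.43 and -0.43), and synaptic transmission and oxidative phosphorylation genes the highest (0.44 and 0.26, or 0.24 and 0.14 without the P60 library 1).

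Genes of synapses and of cell protrusions, the latter chosen by the study on these samples, gave 0 calls. Of 31 synaptic transmission transcripts 28 were positive (median 0.44, 5 at an unadjusted p under 0.05). The median was 0.24 without the P60 library 1, 0.02 with oligodendrocyte and neuron markers as covariates and -0.22, with 2 called lower, with the astrocyte covariate. *Camk2a*, a postsynaptic kinase, had 134.4, 98.3 and 51.0 TPM at P20 and 319, 246 and 169.8 TPM at P60 (adjusted p = 0.0579), and *Snap25*, a presynaptic fusion protein, had 2.12 to 4.33 TPM against 6.18 to 12.7 TPM (adjusted p = 0.14). In both, the order of libraries within each age was that of the neuron marker sum. Of 52 protrusion gene transcripts 36 were positive (median 0.16, 4 at an unadjusted p under 0.05). The median was -0.02 without the P60 library 1, -0.07 with oligodendrocyte and neuron markers as covariates and -0.26 with the astrocyte covariate. *Ctnnd2*, delta-catenin, had 47.9, 34.1 and 28.6 TPM against 106.7, 79.8 and 63.4 TPM (adjusted p = 0.259). *Ntrk2*, the BDNF receptor, had 111.9 to 157.6 TPM against 183 to 368 TPM (adjusted p = 0.436). *Ntn1*, netrin-1, had 13.1 to 16.9 TPM against 19.4 to 32.1 TPM (adjusted p = 0.441). *Ptn*, pleiotrophin (356 to 410.1 TPM against 389 to 718 TPM), *Ncam2*, an adhesion molecule (1.12 to 3.39 TPM against 1.51 to 4.24 TPM), and *Wnt5a*, a secreted Wnt ligand (1.09 to 1.71 TPM against 0.75 to 1.96 TPM), overlapped between the ages.

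The modules into which the study clustered the transcripts, on these same libraries, describe the calls but are no independent evidence. The adult module AM held 110 of the 146 rises and 1 of the 224 falls. The juvenile module JM held 79 falls and 0 rises, the module of immature microglia, IM, 76 falls and 15 rises, the module MIA-IM 42 falls and 3 rises, and the module REP-AM 26 falls and 18 rises. The mean z-score of AM transcripts over the 30 libraries was 0.39, 0.21 and 0.08 at P20 and 1.38, 0.79 and 0.63 at P60.

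In Saline offspring the same ages differed in 499 transcripts (3.51%), 145 higher (1.02%) and 354 lower (2.49%) at P60. This count was 5 with only the groups compared and 115 with log2 *Xist* as a covariate, so the overlap below depends on the setting. The transcripts called in both numbered 160, which is 43.2% of the calls in MIA and 32.1% of those in Saline offspring, and all 160 had the same direction. Of the 146 rises in MIA offspring 35 were also called in Saline, and of the 224 falls 125. Of the 370 transcripts called in MIA offspring 365 had the same sign in Saline offspring. The median log2 fold change of the rises was 0.93 in MIA and 0.44 in Saline offspring, and that of the falls -0.80 and -0.65. The first of each pair was chosen for its size, so a smaller second value follows in part from the choice. The difference of the 2 age changes was tested directly, and 0 of 14225 transcripts passed in limma (smallest adjusted p 0.984, 473 at an unadjusted p under 0.05). An age change particular to MIA offspring was therefore not detected for any transcript with 3 libraries a group.

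Several of the largest falls had like values in both kinds of offspring. *Igf2bp3* had a log2 fold change of -2.22 in MIA and -1.98 in Saline offspring (adjusted p = 5.14e-08 in Saline), *Gdf15* -3.1 and -2.97, *Igfbp3* -3.31 and -3.35 and *Retnla* -3.15 and -2.93. The values of *Ccl3* and *Ccl9* lay further apart, without passing the test of the difference. *Ccl3* had -1.28 and -0.53 (difference -0.74 ± 0.44 SE, unadjusted p = 0.104) and *Ccl9* -1.04 and -0.35 (unadjusted p = 0.0631). The cytokine list as a whole had medians of -0.43 in MIA and -0.39 in Saline offspring. Of its 30 differences, MIA minus Saline, 17 were positive and 1 was at an unadjusted p under 0.05. Among the rises *Qdpr* had 1.79 and 1.5, and *Dkk3* 1.92 and 0.34 (unadjusted p of the difference 0.0318). *Ndufa5* had 0.92 and 0.29 (unadjusted p of the difference 0.0272). The 3 transcripts with the smallest p for the difference were *Snora41*, a small nucleolar RNA, *Tspan4*, a tetraspanin, and *Kbtbd4*, an adaptor of ubiquitin ligases, each with an adjusted p of 0.984. *Snora41* had a log2 fold change of -1.09 in MIA and 1.36 in Saline offspring (unadjusted p = 0.000154), *Tspan4* -0.69 and 0.65 (0.00025) and *Kbtbd4* 0.67 and -0.21 (0.000474). Astrocyte marker sums in Saline offspring were 6904, 4215 and 3780 TPM at P20 and 4844, 9129 and 2652 TPM at P60, overlapping between the ages. The Saline groups had the same sexes as the MIA groups by *Xist*, with 3 female libraries at P20 (172 to 193.5 TPM) and 1 at P60 (124.1 TPM, against 0.28 and 0.29 TPM).

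**Figure D4:**
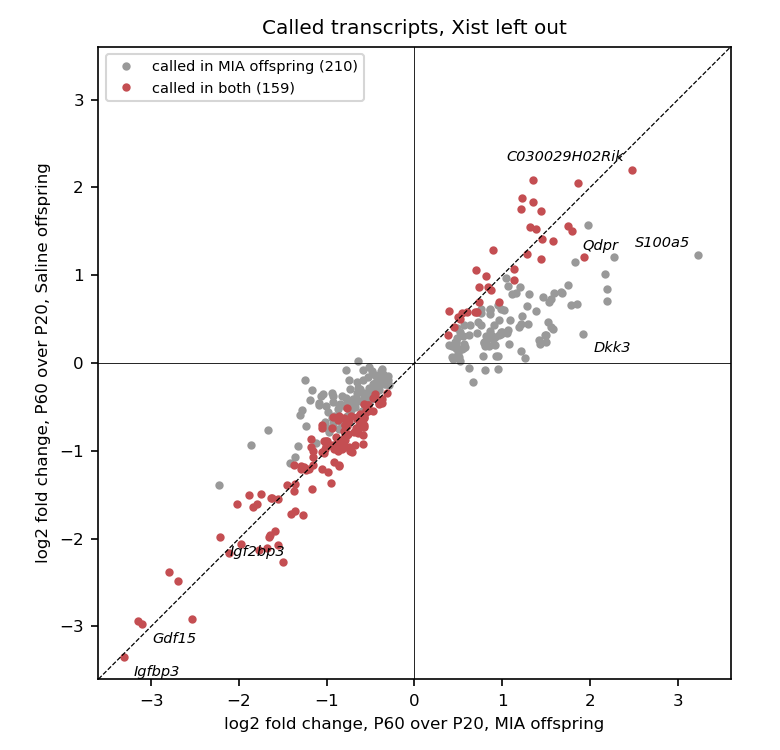
Log2 fold change, P60 over P20, in MIA offspring (x axis) and Saline offspring (y axis) for the transcripts called in MIA offspring, with Xist left out; red points are called in both and the dashed line marks equal change. The falls lie near the line, many rises lie below it, and no difference passed the test.

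The earlier ages place these changes in development. In MIA microglia *Igf2bp3* stood at 95.3, 67.2, 13.3 and 2.08 TPM on average at E17, P7, P20 and P60, a decline at every step. *Gdf15* instead peaked at P20, at 26.7, 229, 754.8 and 88.6 TPM, and *Retnla* at P7, at 0, 219, 55.4 and 5.25 TPM. *Dusp2* had 957, 1155, 628 and 154.2 TPM and *Cxcl10* 265, 393, 138.5 and 39.8 TPM, both highest at P7. *Ccl3* had 2010, 2033, 2974 and 1290 TPM. *H2-Aa* climbed throughout, at 19.3, 42.3, 176.9 and 389.5 TPM, while *Qdpr* was level at 182, 184 and 249 TPM before 920 TPM at P60. *Fosb* had its lowest mean at P20, at 1074, 946, 489 and 1575 TPM. E17 and P7 libraries were pools of several animals, so their spread cannot be set against that of single brains.

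**Figure D5:**
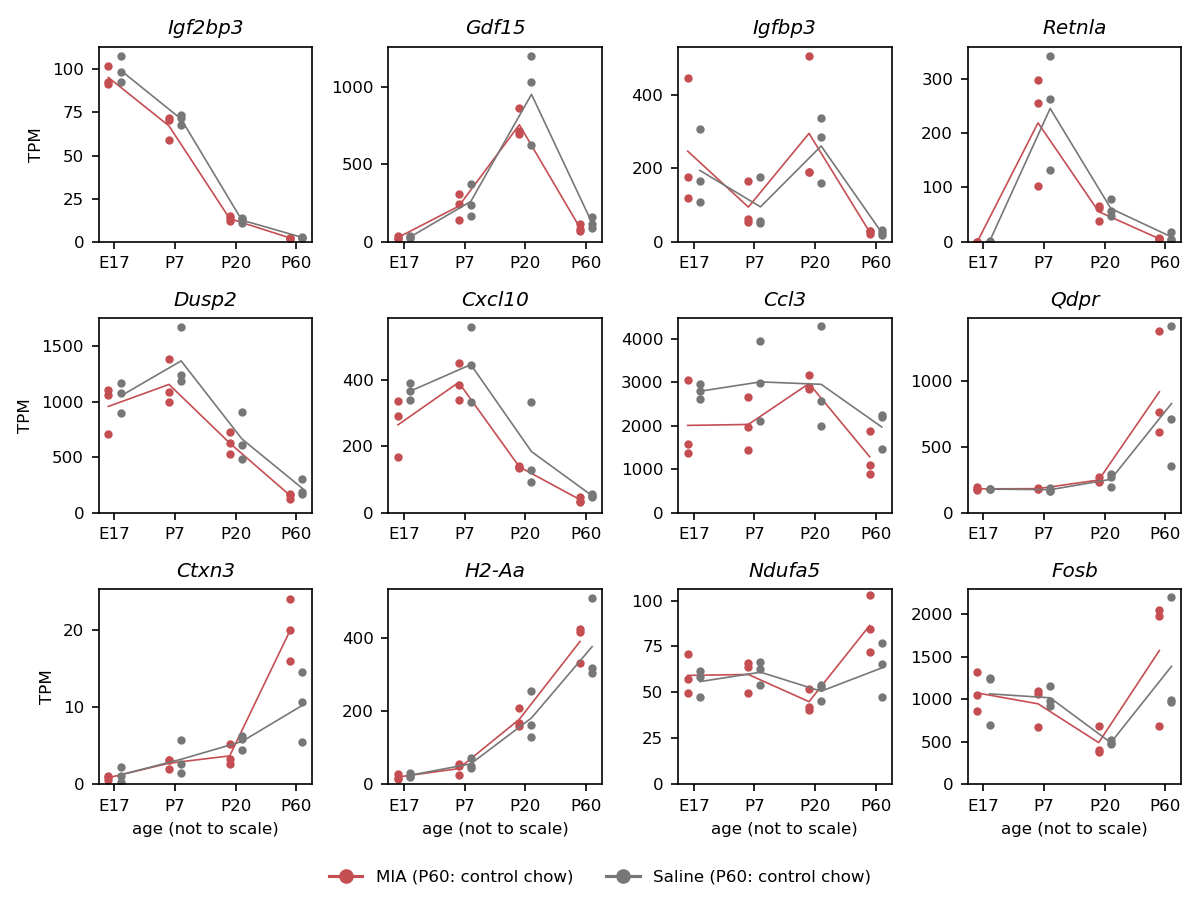
TPM of 12 genes at E17, P7, P20 and P60 in MIA offspring (red) and Saline offspring (grey), with 1 point for each library, lines through the means of 3 libraries, and the ages evenly spaced. Igf2bp3 declines at every age, Gdf15 is highest at P20, Retnla at P7, and Qdpr, Ctxn3 and H2-Aa are highest at P60, in both kinds of offspring.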

How the data were processed

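The authors made unstranded poly(A) libraries, used Rsubread for alignment to mm10 and featureCounts, with gene models from UCSC, for counting, and dropped low transcripts. The deposited values are TPM of 14225 transcripts, made by the authors with a formula not given in the sources used here; batches, litters and sex are not in the labels. The members and lists were chosen with earlier results of these data known.

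Counted reads were estimated from the steps of low TPM times transcript length (found for 98.45% of transcripts). Between 75.4% and 77.6% of values lay within 0.2 of a whole read in the 6 libraries, against 40% by chance. In R 4.3.3, limma 3.58.1 was fitted to log2(TPM + 1) with all 10 groups in 1 model and a mean-variance trend. P-values are two-sided and adjusted by Benjamini-Hochberg over 14225 transcripts at 0.05. Single sums were compared by exact permutation over the 10 splits of 3 against 3 libraries. The fit was checked on simulated data. Limma's p-values rest on the spread between libraries within all 10 groups, which include pools of several animals at E17 and P7. They do not measure the spread between single brains of P20 and P60 alone. Permutation p-values use only the 6 libraries compared. The litters are unknown.

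Named are the 12 largest rises and falls (called, not overlapping, mean of at least 5 TPM at an age, sex-linked genes apart), up to 4 members of each list with the smallest p, 7 microglial genes (1 is not reported here), 6 protrusion genes, 5 sex genes and the 3 smallest p of the difference. Others, such as *Ncf1*, *Phyh* and *Nfkbid*, were chosen after their values were seen. Coordinates and promoters are from RefSeq on GRCm38.p6, matched for 99.29% of transcripts. The kappaB search was added after the data were seen. Alternatives were quantile normalization, median-ratio scaling, a pseudocount of 0.1, a floor of 1 on the mean TPM, a replicate block, no trend, only the groups compared, covariates for *Xist* and for markers, libraries with over 50 TPM of *Xist*, and each library left out.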

Additional observations from a re-analysis of the deposited data

How the results depend on the processing

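The 370 calls in MIA offspring became 628 after quantile normalization, 111 with log2 *Xist* and 954 with oligodendrocyte and neuron markers as covariates, and 929 with the astrocyte covariate chosen after seeing the data, of which 16.5% were higher at P60. Omitting 1 library gave 100 to 225. With only the groups compared 450 were called, 212 of them among the 370. The split moved too, to 74.9% higher in libraries with over 50 TPM of *Xist*, 54.1% with log2 *Xist*, 54.4% with oligodendrocyte and neuron markers and 50% after quantile normalization, and to 25.3% without the P60 library 1. Saline calls were 115 with log2 *Xist*, 1270 with oligodendrocyte and neuron markers, 36 in libraries with over 50 TPM of *Xist*, 1291 with the astrocyte covariate, 5 with only the groups compared, and 186 to 383 when 1 library was omitted. The difference of the age changes had 0 calls in all settings but 1, with 1 call without P20 Saline library 3. The cause of these moves was not tested.

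Libraries share replicate numbers, and deviations of same-numbered libraries correlated at 0.22, 0.07 and 0.15. Of the differently numbered pairs, the P20 library 2 and the P60 library 3 correlated at 0.13. The others were negative, from -0.29 to -0.008. The labels name no litter, and the main fit did not pair the libraries. Whether the numbers mark a shared factor was not tested. With the replicate block 322 transcripts were called in MIA offspring (316 of them among the 370), 463 in Saline offspring and 0 for the difference.

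Mean log2(TPM + 1) in place of summed TPM gave an age difference of -0.90 for choroid plexus markers (-1.46 on sums), -0.37 for border macrophage markers (-0.44), 0.28 for monocyte and neutrophil markers (-0.43) and -0.25 for erythroid markers (0.30), so the last pair changed direction. Of the named genes called in the comparison, *Xist* alone changed sign, to 1.12e-15 where it was its own covariate. The other changes of sign were in genes not called. With oligodendrocyte and neuron markers as covariates the log2 fold change was 0.0045 for *Cx3cr1*, 0.0700 for *P2ry12* and -0.090 for *Nr1d1*. With the astrocyte covariate it was 0.15 for *Cx3cr1*, 0.023 for *Tmem119*, -0.80 for *Ncam2*, -0.086 for *Ntn1*, -0.39 for *Nr1d1*, -0.30 for *Ntrk2* and -0.61 for *Ptn*. With log2 *Xist* and in libraries with over 50 TPM of *Xist*, in this order, it was 0.093 and 0.34 for *Wnt5a*, 0.58 and 0.27 for *Dbp*, and -0.36 and -0.94 for *Tsc22d3*, and 43 and 39 of the named called genes lost their calls. Omitting 1 library gave -0.23 to 0.0202 for *Cx3cr1*, -0.18 to 0.43 for *Ncam2*, -0.28 to 0.35 for *Nr1d1*, -0.067 to 1.0 for *Tsc22d3*, -1.37 to 0.10 for *Zbtb16* and -0.32 to 0.064 for *Wnt5a*. With 3 libraries a group, small differences could not be shown, and 1 read was worth up to 0.33 TPM on 1 kb, so transcripts near that level are imprecise.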

Other observations

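Of 7 genes of the circadian clock, looked up after values were seen, *Ciart* and *Arntl* were called between P20 and P60 in MIA offspring. Of all transcripts 2.6% were called. *Ciart*, a repressor of the clock, had 51.6, 46.5 and 67.9 TPM at P20 and 19.1, 14.3 and 13.7 TPM at P60 (log2 fold change -1.75, limma adjusted p = 0.00164) and fell in Saline offspring too (log2 fold change -1.49, adjusted p = 0.00454). *Arntl*, the BMAL1 gene, rose from 0.95 to 1.26 TPM to 2.2 to 3.05 TPM (adjusted p = 0.0453), and lost the call in each of the 6 omissions of a library (adjusted p up to 0.163). *Per2* had 21.9 to 25.0 TPM against 7.0 to 14.0 TPM (adjusted p = 0.124) and *Cry1* 28.1 to 41.1 TPM against 15.6 to 19.9 TPM (adjusted p = 0.124), neither past the threshold. *Npas2* (4.17 to 5.7 TPM against 8.72 to 13.9 TPM, adjusted p = 0.218), *Dbp* (110.6 to 118.5 TPM against 68.5 to 137.7 TPM, adjusted p = 0.721) and *Nr1d1* (105.4 to 112.8 TPM against 87.7 to 211.4 TPM, adjusted p = 0.885) were not called either. With log2 *Xist* as a covariate *Ciart* lost its call (adjusted p = 0.0777). The labels give no hour of collection.

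*Fkbp5*, a glucocorticoid-induced chaperone, fell from 226, 252 and 630 TPM to 66.5, 102.5 and 168.3 TPM (adjusted p = 0.0254). It lost its call in 3 of 6 omissions (adjusted p up to 0.165). The P20 library 3, which was also far above its group in *Igfbp3*, held the highest value. *Sgk1*, another such gene, had 88.0 to 95.5 TPM against 48.3 to 68.7 TPM (adjusted p = 0.0517). *Tsc22d3* (77.0 to 108 TPM against 45.5 to 204.7 TPM, adjusted p = 0.697) and *Zbtb16* (5.75 to 50.9 TPM against 5.21 to 12.3 TPM, adjusted p = 0.588), also induced by glucocorticoids, overlapped between the ages.

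Among rises outside the lists, *Tnfsf13b*, the B cell survival factor BAFF, rose from 7.94 to 9.68 TPM to 17.03, 27.0 and 31.9 TPM (adjusted p = 0.0142), with the call lost in 4 of 6 omissions (up to 0.0705). *Pla2g2d*, a secreted phospholipase, rose from 1.43 to 3.04 TPM to 5.52 to 6.97 TPM (adjusted p = 0.00497). Both also rose in Saline offspring, with log2 fold changes of 1.83 (adjusted p = 0.000913) and 1.88 (adjusted p = 8.87e-05). These genes too were chosen after their values were seen.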
